A study of Lotus japonicus with 14 samples.

Results

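Nodules formed on apn1 and on wild type plants with the rhizobial strain TONO were compared at 5, 7 and 10 days after inoculation (dai). The comparison rests on 6 of the 14 libraries of the series, 1 per genotype and day, chosen by their labels and set against each other day by day. The genotypes parted late: at 10 dai 20.6% of the gene models were at least 2-fold apart, against 5.45% at 5 dai and 6.43% at 7 dai. Gene models that were at least 4-fold up late in nodules of the other strain were mostly near their 7 dai level in the mutant with TONO. Models that were down late with that strain were mostly higher in the mutant than in wild type.

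Lotus japonicus is a model legume. Its root cells divide to form a nodule primordium when rhizobia infect the root, bacteria are then released into nodule cells and differentiate into bacteroids, and in a mature nodule these reduce dinitrogen to ammonia for the plant. The plant supports this with a late programme of gene expression that includes leghaemoglobins, which buffer oxygen, and transporters and enzymes that feed the bacteroids and take up the fixed nitrogen. A Fix- mutant forms nodules that do not fix nitrogen efficiently. APN1 is known as a nodule-induced aspartic peptidase, and the outcome of symbiosis in its mutants is known to depend on the rhizobial strain.

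The wild type was the accession MG20 (Miyakojima). The mutant, labelled Fix-, is spelled apn1 in the study design and anp1 in some sample titles. The sources used here do not separate the mutation from other differences between the plant lines, and do not state how many plants or nodules a library holds. All plants grew in vermiculite with nitrogen-free B&D medium and received Mesorhizobium loti 7 days after planting. The RNA came from excised primordia and young nodules, so the tissue sampled changed with age. The other 8 libraries are the same 2 genotypes with strain MAFF303099 on the same 3 days, and 1 uninoculated root per genotype. Each condition is 1 library, so the levels below have no replicate error.

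The deposited tables list 38476 gene models by identifier only. These could not be paired with gene names, so the sampled tissue could not be checked with named markers, and no gene names or functions are given. A check by lists was possible. The 502 models at least 4-fold higher in both roots than in every MAFF303099 nodule of their genotype held 3.54% and 3.56% of the counts of the roots. In the 6 TONO nodule libraries they held 0.406% to 0.660%. The 512 models with the reverse pattern held 0.160% and 0.162% of the counts of the roots, and 13.4% and 6.96% in wild type and apn1 nodules with TONO at 10 dai. Total counts of the TONO libraries were 56865631, 48180653 and 35585651 in wild type and 58395305, 54067684 and 33981124 in apn1 at 5, 7 and 10 dai. The 10 dai libraries of both genotypes were shallower, so depth changed with day but little between genotypes within a day. After all libraries were thinned to the smallest total, the shares at least 2-fold apart were 5.71%, 6.69% and 20.2% at the 3 days.

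Levels are given as CPM, the count scaled to a common library total with TMM factors, and differences as log2 of apn1 over wild type. Of 32777 models measured, 1786 were at least 2-fold apart at 5 dai, 1072 of them higher and 714 lower in apn1. At 7 dai 2106 were apart, 1356 higher and 750 lower. At 10 dai the number was 6759, with 3930 higher and 2829 lower. The median absolute log2 difference was 0.24 at 5 dai, 0.23 at 7 dai and 0.46 at 10 dai. For comparison, the roots of both genotypes were apart at 5.52% of the models, and nodules with MAFF303099 at 4.18%, 4.88% and 11.3%. The late increase was seen at high expression too. Among the 8194 most highly expressed models, 1.05% were at least 2-fold apart at 5 dai, 0.635% at 7 dai and 13.0% at 10 dai. With total-count scaling the median difference over all models at 10 dai moved from 0.02 to 0.42, and 7080 models were then higher and 1522 lower. Differences at 10 dai are therefore relative to the typical gene model. In bulk tissue, fewer cells of a type and less RNA per cell cannot be told apart.

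**Figure D1:**
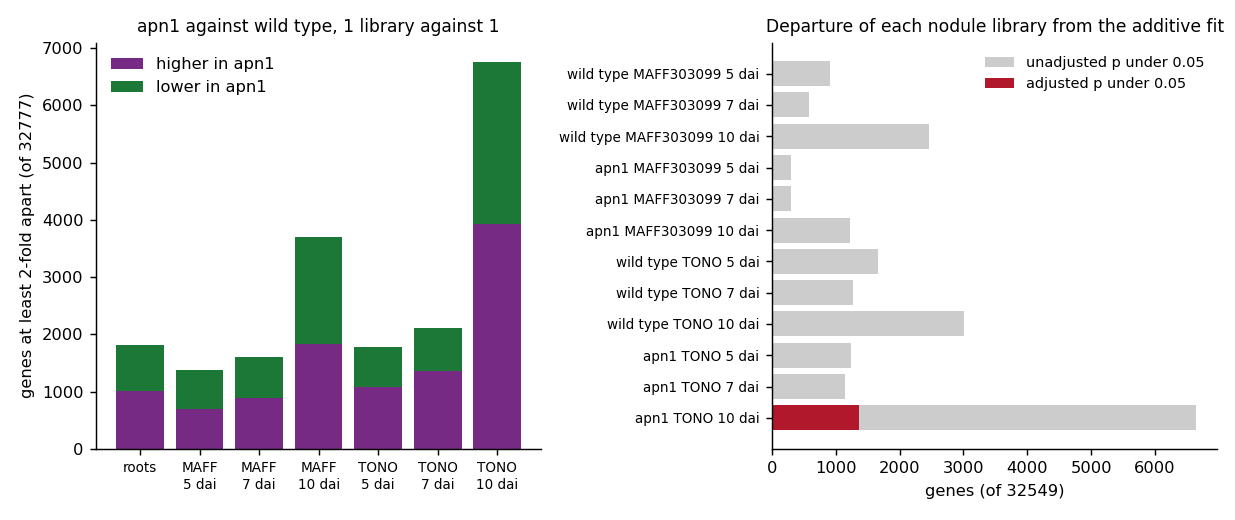
Left, number of gene models at least 2-fold apart between the apn1 and the wild type library of each pair, split by direction (y axis, of 32777 models; MAFF stands for MAFF303099). Right, number of models at which each nodule library departed from a fit with additive terms for genotype with strain and for day (x axis, of 32549 models). The TONO pair at 10 dai has 6759 models apart, and the apn1 TONO library of 10 dai is the one with adjusted calls, 1370. That library stayed among the additive terms when the others were tested, which can widen their spread.

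To test each day, the apn1 TONO library of that day was set free of the additive terms for genotype with strain and for day, and the other nodule libraries gave the spread. At 5 dai 1 of 32549 gene models (0.00307%) passed edgeR's quasi-likelihood test at an adjusted p under 0.05, and 1254 (3.85%) had an unadjusted p under 0.05. At 7 dai 1 model (0.00307%) passed, the same one, with 1409 (4.33%) at an unadjusted p under 0.05. In this fit both unadjusted shares are below the one that p-values spread evenly from 0 to 1 would give. With limma-voom 1735 and 1782 models had an unadjusted p under 0.05 at 5 and 7 dai. With the 6 TONO libraries all free in edgeR it was 2142 and 1997. These are more than evenly spread p-values would give, so the low shares cannot show that the genotypes do not differ on those days. At 10 dai 2713 models (8.34%) passed, 1333 higher and 1380 lower in apn1. The fitted difference, which is not that of the library pair, was at least 2-fold for 1007 and 988 of these. DESeq2 called 22, 30 and 4012 models at the 3 days, and limma-voom 0, 2 and 2716. The 10 dai count fell to 1414 without the wild type TONO library of that day. It was 1716 and 1557 without the wild type MAFF303099 libraries of 5 and 7 dai, and 1538 and 1614 without those of apn1.

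The step between days was then tested itself. The fitted genotype difference at 10 dai departed from the mean of those at 5 and 7 dai for 994 models (3.05%). Of these, 486 went toward higher and 508 toward lower levels in apn1. The wild type side of this test is a day effect shared by wild type TONO and the MAFF303099 libraries, not the wild type TONO libraries alone. With the 6 TONO libraries all free, 1116 models were called, 544 of them among the 994. Between 7 and 5 dai the difference changed for 0 models with edgeR, and DESeq2 and limma-voom called 3 and 0. With edgeR 811 (2.49%) had an unadjusted p under 0.05, again fewer than evenly spread p-values would give. With limma-voom it was 1044, also fewer, but with the 6 TONO libraries all free in edgeR it was 1830, which is more. The count of 994 depended on single libraries. It was 254 and 400 without the apn1 TONO library of 7 or 5 dai, and 272 and 386 without apn1 MAFF303099 of 5 or 7 dai. Without wild type MAFF303099 of 5, 7 or 10 dai it was 420, 307 or 526, and without wild type TONO of 7 dai 468. Without wild type TONO of 5 dai it was 1672, and DESeq2 gave 2261.

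Each of the 12 nodule libraries was also freed in turn from the additive fit, a step chosen after seeing the data. The apn1 TONO library of 10 dai departed at 1370 models, 661 upward and 709 downward. Each of the other 11 libraries departed at 0 models with edgeR's adjusted test, and at 293 to 3005 models at an unadjusted p under 0.05. The highest of these, 3005, was the wild type TONO library of the same day. In the fits of those other libraries the apn1 TONO library of 10 dai stayed additive, which can widen the spread. Their counts of 0 therefore cannot show that no other library departs. Which single library stands apart can be read this way only under the additive terms, since no condition was repeated.

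The gene models named for their late differences were called and reached at least 10 CPM in a TONO library. At 10 dai with TONO most were either not raised by the mutant or raised by it alone. Part of this is fixed by the choice, since the same libraries chose these models by their largest fitted differences. chr2.CM0533.230.r2.a was at 8.52, 26.9 and 247 CPM in wild type with TONO at 5, 7 and 10 dai, and at 8.36, 29.6 and 14.5 CPM in apn1. The genotypes lay side by side until 7 dai and were 17.1-fold apart at 10 dai. With MAFF303099 both genotypes were high at 10 dai, at 290 CPM in wild type and 309 CPM in apn1. A second model of the same contig, chr2.CM0533.300.r2.a, was at 14.1, 6.76 and 40.0 CPM in wild type and 16.6, 6.97 and 2.85 CPM in apn1. Its MAFF303099 levels at 10 dai were 53.9 and 52.4 CPM. Again the apn1 TONO library of 10 dai was the low one, and both genotypes dipped at 7 dai first.

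Of the models so chosen, LjSGA_031521.1.1 had the largest fitted late change downward under TONO. Its levels were 3.03, 0.538 and 20.6 CPM in wild type and 5.36, 0.253 and 0.851 CPM in apn1, 24.2-fold lower at 10 dai. The fitted late change was −5.13 (SE 0.96, edgeR adjusted p = 0.0333). LjSGA_026650.1 followed the same course at a higher level, with 12.2, 2.30 and 67.3 CPM in wild type and 13.0, 2.04 and 3.17 CPM in apn1. Its fitted late change was −4.85 (SE 0.97, edgeR adjusted p = 0.0408). Each of these late changes missed the threshold in 7 of 19 alternatives, with adjusted p up to 0.215 and 0.120 without the apn1 TONO library of 5 dai. Both models were low at 7 dai in both genotypes, and the genotypes separated after that day. They were also apart in the uninoculated roots, in the other direction, at 0.447 against 10.2 CPM and at 1.69 against 30.0 CPM in wild type and apn1. With MAFF303099 at 10 dai both were high in either genotype, at 29.8 and 14.7 CPM for the first and 90.5 and 42.5 CPM for the second.

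Among models raised in the mutant, chr4.CM0432.2580.r2.a was at 2.43, 1.12 and 3.19 CPM in wild type and 2.89, 2.26 and 64.4 CPM in apn1. The apn1 library of 10 dai stood 20.2-fold above the wild type one, and above both roots at 8.97 and 9.75 CPM. chr3.CM0423.190.r2.m was at 2.88, 1.53 and 1.78 CPM in wild type and 2.94, 3.23 and 35.1 CPM in apn1. It too was higher in the apn1 TONO nodule of 10 dai than in the roots, at 8.63 and 7.15 CPM. LjSGA_014379.2 had 6, 0 and 15 counts in wild type and 8, 11 and 694 counts in apn1. It was close to silent everywhere else, at most at 0.443 CPM in a MAFF303099 nodule and 0.353 CPM in a root. Its fitted difference at 10 dai was 5.75 (SE 0.84, edgeR adjusted p = 0.00900).

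LjSGA_056222.1 was already apart at 7 dai in the pair of libraries. It had 104, 87 and 0 counts in wild type with TONO and 152, 471 and 425 in apn1. At 7 dai it was 4.54-fold higher in apn1. At 10 dai it was at least 148-fold higher by library totals without TMM factors, with 3 counts as the floor of the wild type library. With TMM factors, as used for the 4.54-fold, that bound is lower. The fitted difference was 2.76 at 7 dai (edgeR adjusted p = 0.999) and 5.57 at 10 dai (SE 0.73, edgeR adjusted p = 0.00668). This model was not particular to the mutant, at 6.27 CPM in wild type and 5.48 CPM in apn1 with MAFF303099 at 5 dai. The roots were at 1.38 and 1.08 CPM. LjSGA_049936.1, at 0.678, 0.302 and 0.408 CPM in wild type and 0.215, 0.867 and 10.5 CPM in apn1, had a fitted late change of 4.55 (SE 0.62, edgeR adjusted p = 0.0138), which missed the threshold without the apn1 TONO library of 5 dai (edgeR adjusted p = 0.0708). At 5 and 7 dai its genotypes differed in opposite directions at levels under 1 CPM.

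**Figure D2:**
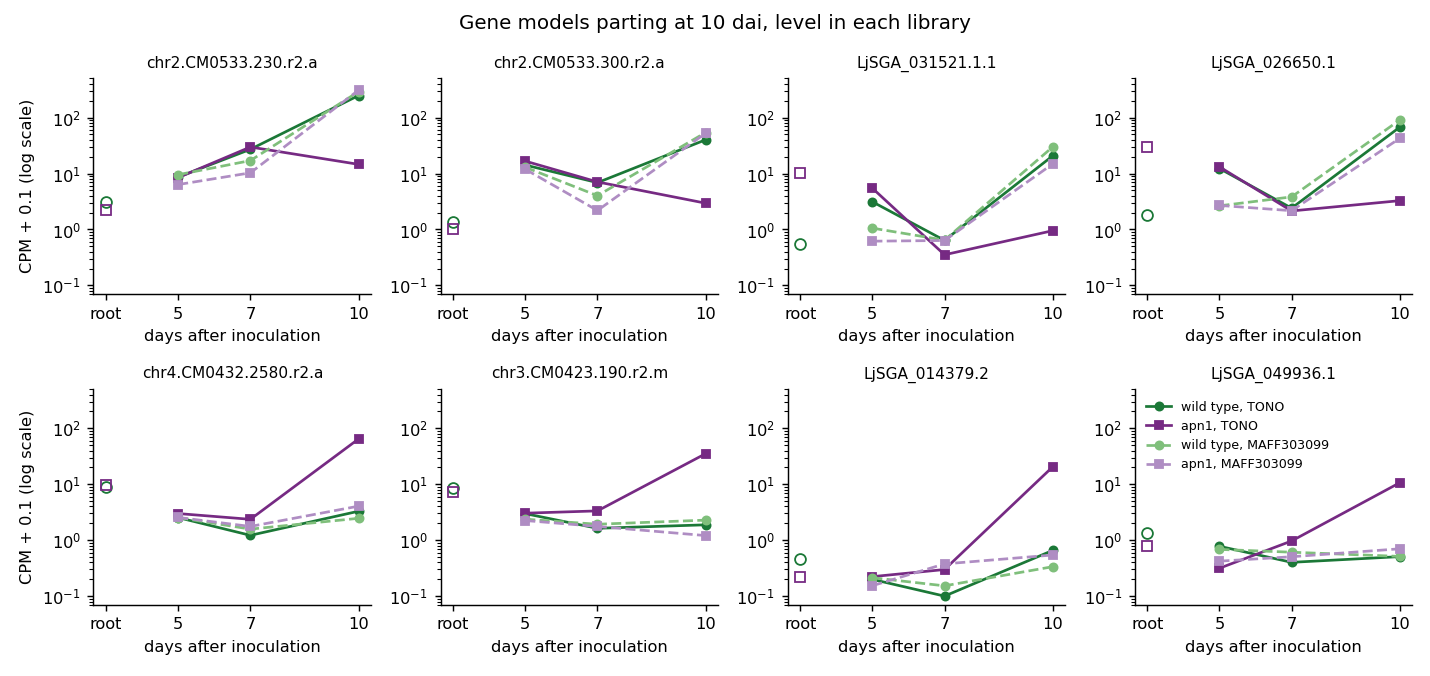
Level of 8 gene models in every library (y axis, CPM plus 0.1 on a log scale) by day after inoculation, with the uninoculated roots at the left as open symbols and 1 library per point. In the upper panels apn1 with TONO is the one line that is not high at 10 dai, and in the lower panels it is the one line that is, for example 64.4 against 3.19 CPM for chr4.CM0432.2580.r2.a.

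Development was followed with lists of gene models made from the MAFF303099 and root libraries alone, so that no TONO library chose their members. A late rise means 5 and 7 dai within 2-fold and 10 dai at least 4-fold above 7 dai, in both genotypes. The 144 late rising models had a median level of 3.52, 2.78 and 5.38 log2 CPM in wild type with TONO at 5, 7 and 10 dai, and of 3.22, 3.08 and 3.56 in apn1. From 7 to 10 dai the median step was 2.56 log2 units in wild type and 0.40 in apn1. A step of at least 2-fold up was taken by 96.5% of these models in wild type and by 25.0% in apn1. The median genotype difference was −0.39, 0.14 and −2.05 at the 3 days, against 0.0098, −0.0017 and 0.021 over all models. At 10 dai 121 of the 144 (84.0%) were at least 2-fold lower in apn1 and 3 were at least 2-fold higher, where 8.63% and 12% of all models were.

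Steadily rising models, at least 2-fold up at both steps, took the first step in both genotypes. Their 199 members had median levels of 1.60, 4.10 and 6.58 log2 CPM in wild type and 1.74, 4.27 and 4.83 in apn1. The median step from 5 to 7 dai was 1.94 in wild type and 1.90 in apn1, and from 7 to 10 dai 2.37 and 0.72. At 10 dai 154 (77.4%) were at least 2-fold lower in apn1, with a median difference of −1.74. The 217 models that rise early and then level off had median differences of 0.18, −0.13 and −1.33. Their levels were near equal at 7 dai, at 4.48 and 4.45 log2 CPM. In wild type with TONO they gained a further 0.98 from 7 to 10 dai and in apn1 they changed by −0.07, while with MAFF303099 the list was defined as level over that step. At 10 dai 133 of them (61.3%) were at least 2-fold lower in apn1.

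Falling models showed the reverse pattern. The 244 late falling models had median levels of 2.63, 3.003 and 0.03 log2 CPM in wild type and 2.91, 2.77 and 1.65 in apn1. Their median step from 7 to 10 dai was −2.81 in wild type and −1.28 in apn1, so levels went down in both genotypes but by less in the mutant. At 10 dai 146 (59.8%) were at least 2-fold higher in apn1 and 7 at least 2-fold lower, with a median difference of 1.23. At 7 dai the median had been −0.28. The 342 steadily falling models had median differences of −0.01, −0.27 and 0.76, and 129 (37.7%) were at least 2-fold higher at 10 dai. Of 316 models that peak at 7 dai with MAFF303099, 90 (28.5%) were at least 2-fold higher and 29 lower in apn1 at 10 dai, with a median of 0.48. The 18 early falling models had a median of 0.61 at 10 dai, with 6 at least 2-fold higher and 2 lower. The 95% interval of that median over models, −0.08 to 1.83, includes 0. Of all models 12% were at least 2-fold higher and 8.63% lower at 10 dai.

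**Figure D3:**
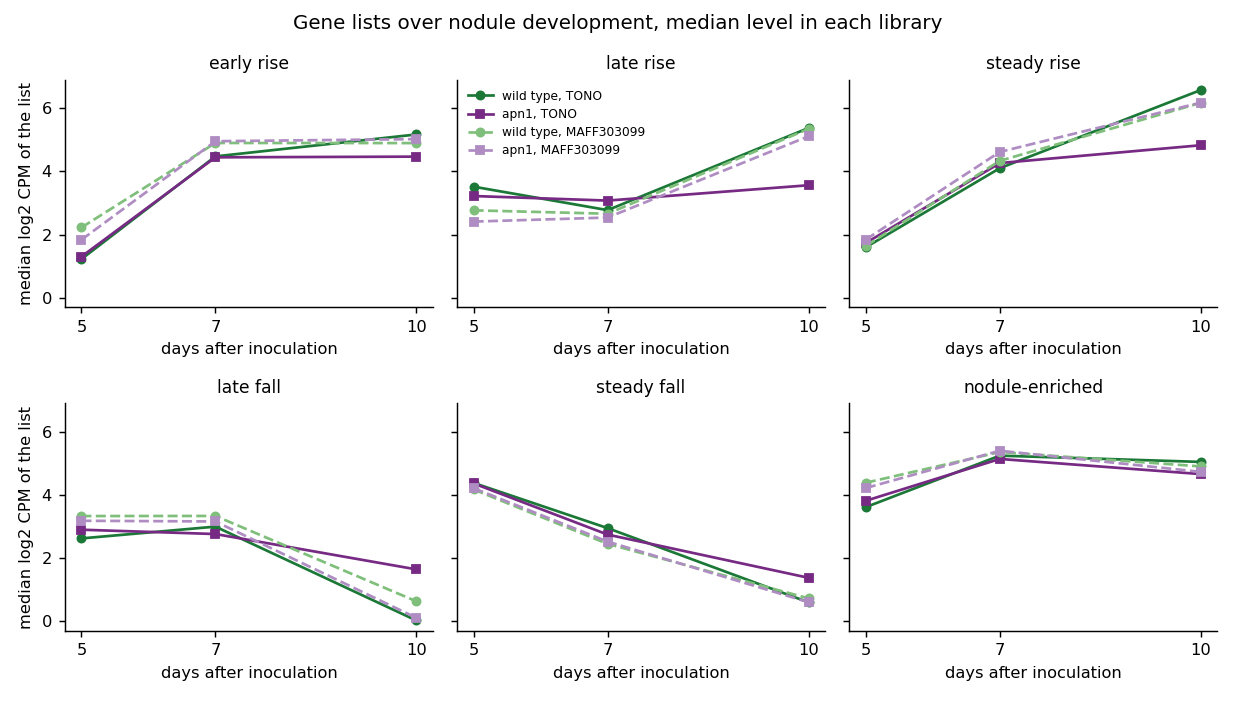
Median level of each list (y axis, log2 CPM) by day after inoculation (x axis) in the 4 combinations of genotype and strain, 1 library per point. With TONO, apn1 ends at 3.56 for late rising models where wild type ends at 5.38, and at 1.65 for late falling models where wild type ends at 0.03.

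Calls by edgeR were counted over the same lists. They borrow from the MAFF303099 libraries that made the lists and so are not independent of the choice of members. Of the 144 late rising models 103 were called lower in apn1 at 10 dai and 0 higher, beside 4.24% and 4.1% of all models tested. Of the 199 steadily rising models 104 were called lower and 1 higher, and of the 217 early rising models 29 and 2. Among late falling models 84 of 241 tested were called higher and 0 lower, and among steadily falling models 47 of 342 and 0. Among 17 early falling models tested 0 were called higher and 1 lower. For the late change itself the counts were 81 lower for the late rise, 50 for the steady rise and 3 for the early rise, beside 1.56% of all models. They were 60 higher for the late fall and 26 for the steady fall, beside 1.49%.

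Root and nodule lists behaved differently from each other. The root-enriched list had median differences of 0.16, 0.08 and 0.01 between the genotypes at 5, 7 and 10 dai. At 10 dai 110 of its 502 models (21.9%) were at least 2-fold higher in apn1 and 64 (12.7%) lower, beside 12% and 8.63% of all models. Its share of the counts at that day was 0.457% in wild type and 0.595% in apn1, both far below the roots. With total-count scaling its median at 10 dai was 0.40, beside 0.42 for all models. The 512 nodule-enriched models had medians of 0.20, −0.14 and −0.64, and 195 of them (38.1%) were at least 2-fold lower in apn1 at 10 dai while 63 (12.3%) were at least 2-fold higher. The part of root tissue in the other results was not tested.

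**Figure D4:**
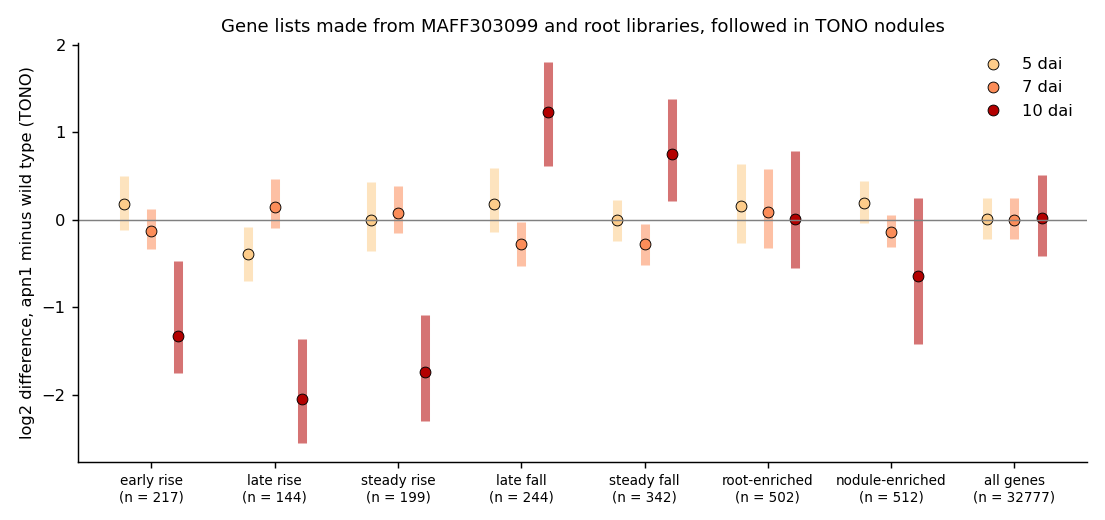
Log2 difference between apn1 and wild type nodules with TONO (y axis) for each list at 5, 7 and 10 dai, with the median as a point and the interquartile range over gene models as a bar. The bars describe spread between models, not between replicates. The rising lists lie below 0 at 10 dai, with a median of −2.05 for the late rise, and the falling lists above it, with 1.23 for the late fall.

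The most abundant transcripts held a smaller share of the counts in the mutant on each day, with the widest gap at 10 dai. In wild type nodules with TONO 77, 93 and 103 models reached 1000 CPM at 5, 7 and 10 dai, and in apn1 73, 84 and 77 did. These models held 17.2%, 19.7% and 26.0% of all counts in wild type and 14.8%, 16.7% and 16.1% in apn1. To choose abundant models without a TONO library, the 94 models of at least 1000 CPM in wild type with MAFF303099 at 10 dai were followed. In the TONO pair of 10 dai 48 of them were at least 2-fold lower in apn1 and 0 at least 2-fold higher, with a median difference of −1.11. Their median had been −0.13 at 7 dai. In the MAFF303099 pair of 10 dai it was −0.12. Beside these, 8.35% of the 8194 most highly expressed models were at least 2-fold lower in the TONO pair of 10 dai and 4.66% higher. Over all models 8.63% were lower and 12% higher. Late rising models held 2.20% of the counts in wild type at 10 dai and 0.728% in apn1, and steadily rising models 6.72% and 2.93%. The Wilson 95% intervals of these 4 shares were within 0.0082 percentage points of the share and cover counting error only.

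Measured over all gene models, the apn1 TONO nodule of 10 dai lay nearest to the apn1 TONO nodule of 7 dai, at a median absolute log2 difference of 0.346. Next came apn1 with MAFF303099 at 10 dai at 0.366, and its own wild type partner was the seventh at 0.460. The wild type TONO nodule of 10 dai lay nearest to the MAFF303099 nodules of its own age, at 0.334 from apn1 and 0.352 from wild type. At 5 and 7 dai the apn1 TONO nodules had their partner of the same day in the second place, at 0.236 and 0.234, after the apn1 MAFF303099 nodule of that day. Each distance compares 1 library with 1.

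The models called at 10 dai were then followed over the step from 7 dai. For the 1380 called lower in apn1, the median step from 7 to 10 dai was 1.09 in wild type and −0.13 in apn1. For 1332 called higher and present in all comparisons, it was −0.91 in wild type and 0.31 in apn1. These steps, and the ranks that follow, describe models that the same libraries chose, so that part of them is fixed by the choice, and carry no test. The apn1 level at 10 dai lay within the range of the 4 TONO libraries of 5 and 7 dai for 45.9% of the models called lower and 27.9% of those called higher. For 485 of the 1332 (36.4%) the apn1 TONO library of 10 dai was the highest of all 14 libraries, for 436 (32.7%) the wild type one was the lowest, and 137 were in apn1 TONO of 10 dai at least 2-fold above every other library. For 714 of the 1380 (51.7%) the wild type TONO library of 10 dai was the highest, and for 206 (14.9%) the apn1 one was the lowest. At 5 and 7 dai the models called higher at 10 dai had median differences of 0.13 and 0.06, and those called lower −0.16 and −0.07.

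The pattern was then set against the genotype difference with MAFF303099, in a fit with a late term for each strain. The late terms differed for 190 models (0.584%), 78 more toward higher levels in apn1 with TONO and 112 more toward lower. Among the 176 of these with at least 10 CPM in a TONO library, the largest differences between the late terms were those of chr2.CM0533.230.r2.a at −5.41 (SE 0.52) and chr2.CM0533.300.r2.a at −5.21 (SE 0.64). In the other direction they were chr3.CM0423.190.r2.m at 4.26 (SE 0.48) and chr4.CM0432.2580.r2.a at 3.68 (SE 0.40), all with an edgeR adjusted p of 0.0299. LjSGA_031521.1.1 at −5.89 (edgeR adjusted p = 0.120) and LjSGA_014379.2 at 5.53 (edgeR adjusted p = 0.110) differed by more and were not called. Each of the 4 called models missed the threshold in 5 or 6 of 16 alternatives, with adjusted p up to 0.116 or 0.171. This count was fragile. It was 0 without any one of the apn1 libraries of 5 or 7 dai of either strain, 1 without wild type TONO of 7 dai and 4 without wild type MAFF303099 of 7 dai. It was 561, 523 and 574 without wild type MAFF303099 of 10 dai, wild type TONO of 5 dai and wild type TONO of 10 dai, and 1070 with DESeq2. Of the 1825 models at least 2-fold higher in apn1 with MAFF303099 at 10 dai, 43.2% were also at least 2-fold higher with TONO, and the median TONO difference was 0.84. Of the 1869 that were lower with MAFF303099, 341 (18.2%) were also at least 2-fold lower with TONO and 400 (21.4%) at least 2-fold higher, with a median of 0.07. Of all models 12% were at least 2-fold higher and 8.63% lower with TONO at that day.

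Some models were apart on all 3 days. Taken as the mean of the 3 days, 20 models differed with TONO (0.0614%), 12 higher and 8 lower in apn1. Without the wild type MAFF303099 library of 10 dai 16 were called, and without any other nodule library 2 to 13. chr2.CM0065.450.r2.d was at 61.9, 165 and 118 CPM in wild type and 0.400, 1.03 and 1.14 CPM in apn1. It was the single model called at 5 dai, at −7.72 (SE 0.54, edgeR adjusted p = 0.0103), and at 7 dai, at −7.23 (SE 0.51, edgeR adjusted p = 0.0110). At 10 dai its fitted difference was −6.42, and the roots stood at 15.1 against 0.520 CPM. Its genotypes were more than 100-fold apart on each of the 3 days and overlapped in no library. At 5 dai it missed the threshold with limma-voom and without the wild type libraries of 7 dai of either strain (highest adjusted p = 0.163). At 7 dai it missed it without the wild type 7 dai library of MAFF303099 (edgeR adjusted p = 0.0662) or of TONO (edgeR adjusted p = 0.143), and for the mean of the days without day 7 (edgeR adjusted p = 0.0868).

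The other named models that were apart on all 3 days differed by less. chr4.CM0007.980.r2.a was at 2.76, 4.03 and 5.75 CPM in wild type and 37.9, 48.5 and 48.1 CPM in apn1. It was 13.7-fold, 12.05-fold and 8.38-fold higher in apn1, and the roots showed 1.56 against 24.5 CPM. LjSGA_046381.1.1 was at 5.62, 3.83 and 2.04 CPM in wild type and 15.0, 13.6 and 12.1 CPM in apn1, a gap that went from 2.66-fold to 3.54-fold and 5.94-fold, with a fitted mean difference of 1.88 (SE 0.22, edgeR adjusted p = 0.0254). LjSGA_079901.1 was at 26.1, 37.3 and 71.4 CPM in wild type and 8.70, 13.6 and 20.8 CPM in apn1, a fitted mean difference of −1.61 (SE 0.16, edgeR adjusted p = 0.0147). Both genotypes went up with age in LjSGA_079901.1. Its roots were higher than any nodule library, at 151 CPM in wild type and 137 CPM in apn1. The roots showed 2.21 against 8.78 CPM for LjSGA_046381.1.1. LjSGA_046381.1.1 missed the threshold in 14 of 23 alternatives (highest edgeR adjusted p = 0.628), LjSGA_079901.1 in 10 (highest edgeR adjusted p = 1) and chr4.CM0007.980.r2.a in 4 (highest edgeR adjusted p = 0.520). With MAFF303099 LjSGA_079901.1 was not lower in apn1, at 14.5, 22.6 and 25.0 CPM against 8.46, 11.9 and 23.3 CPM in wild type.

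Counting by size alone, 73 models (0.223%) were at least 2-fold higher in apn1 on all 3 days and 31 (0.0946%) at least 2-fold lower. Of the 73, 25 (34.2%) were also at least 2-fold higher in the apn1 root, where 3.06% of all models were, and 5 at least 2-fold lower. At least 2-fold higher on all 3 days with MAFF303099 were 17 of the 73, against 0.149% of all models. Of the 31, 9 (29.0%) were also at least 2-fold lower in the apn1 root, against 2.46% of all models, and 4 at least 2-fold higher. At least 2-fold lower on all 3 days with MAFF303099 were 7 of the 31, against 0.0976% of all models. The TONO and root comparisons share no library. By position, 5 of the 31 lie on 1 contig of chromosome 2, chr2.CM0065, among its 57 models. Of 283 contigs with at least 20 models, 248 had none of the 104 models, 26 had 1, 7 had 2 and 2 had 3 or more. Models called at 10 dai made up 8.26% to 9.97% of the tested models of each of the 6 chromosomes, 7.59% of the LjSGA models and 6.19% of those on other clones. By contig the share ran from 0 to 30.8% with a median of 8.27%, and on chr2.CM0065 it was 14 of 55 (25.5%). How even the spread is was not tested.

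**Figure D5:**
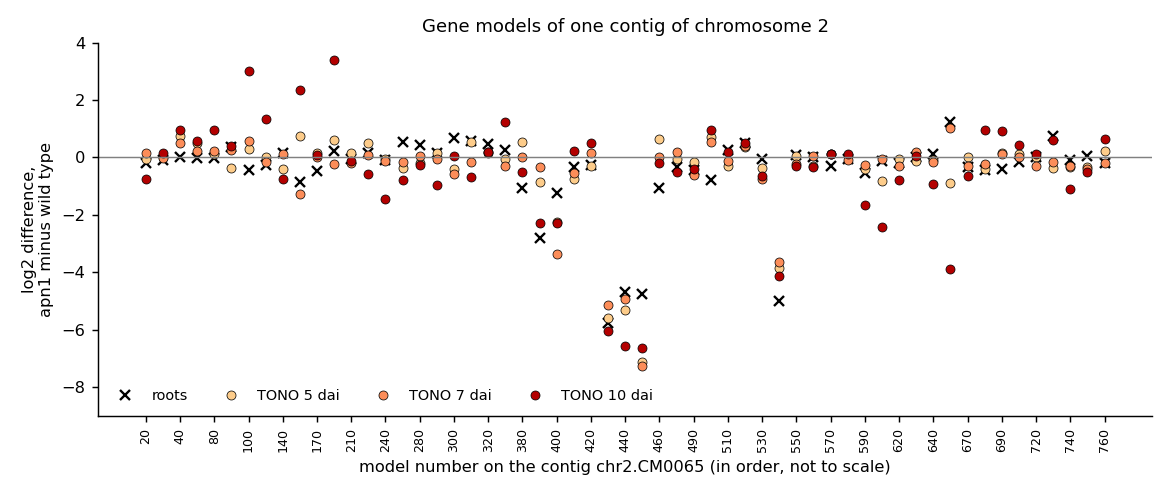
Log2 difference between apn1 and wild type (y axis) for the 57 gene models of the contig chr2.CM0065 in the order of their numbers (x axis, not to scale), in roots and in TONO nodules of 5, 7 and 10 dai, 1 library against 1. Model 450 lies at −7.14, −7.27 and −6.64 on the 3 days, while most models of the contig lie near 0 at 5 and 7 dai.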

How the data were processed

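RNA of 14 Lotus japonicus samples was sequenced on an Illumina HiSeq1000, after ribosomal depletion with plant and gram-negative kits and ScriptSeq version 2 library preparation, per the labels' protocols and the series' design text. The authors deposited 12 tables of raw read counts per gene model, each with 1 nodule library and the root of its genotype. Bowtie2 2.0.2 and DESeq were used, per the submitters' processing notes. For the build, the annotation, the counting tool and the use of strand nothing is given in the sources used here. Antisense, overlapping or near-identical models may therefore share reads. The deposited normalized signal was not used, because its scale is set per table. No column was left unmapped (0 of the count columns), and none of the 38476 identifiers matched the assembly LjGifu_v1.2 name table (0 matches).

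Samples were grouped by their titles and characteristics. Counts were scaled by TMM, and log2 CPM used a prior count of 2. Low models were left out, with a mean of 10 counts required once totals were made equal. This kept 32549 in the 12 nodule libraries and 32777 in all 14. The tests were edgeR quasi-likelihood F tests, two-sided, with Benjamini-Hochberg adjustment over all models at 0.05 (edgeR 4.0.16, DESeq2 1.42.0 and limma 3.58.1 in R 4.3.3, with figures by matplotlib 3.10.9 in Python 3.11.15). SE is the log2 difference divided by the square root of F. The mean of 3 days came from additive terms for 4 genotype-strain combinations and 3 days (6 residual degrees of freedom). In the fit by day each apn1 TONO library was free and the other 9 nodule libraries were additive (4 residual degrees of freedom). The wild type value of a day is then the fitted one, which also draws on the other wild type and MAFF303099 libraries. The difference between strains came from the additive terms plus a term for apn1 at 10 dai with each strain (4 residual degrees of freedom). The samples are not replicated, so the p-values measure only departures from additive terms. The fits were tested on simulated data with known changes. Those data were drawn from the additive terms, so they cannot test whether the terms hold.

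Named models are at most 2 upward and 2 downward per contrast, those with the largest fitted difference among called models with at least 10 CPM in a TONO library (for the mean of 3 days, with 1 direction on all days). Members, lists, tests and this rule were chosen with earlier results of these data known. A count of 0 allows 3 counts, 0.0514 to 0.0883 CPM per library by total counts without TMM factors. Intervals and floors cover counting error only. Alternatives were upper-quartile, DESeq2 (RLE) and total-count scaling, other filters and prior counts, DESeq2, limma-voom, thinning, other model terms, other list thresholds, and leaving out each library or day.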

Additional observations from a re-analysis of the deposited data

Results flagged for a closer look

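The genotype difference at 10 dai with TONO was tested against that at 5 and 7 dai. Its wild type side was a day effect shared with the MAFF303099 libraries. By edgeR the fitted difference departed for 994 gene models. Among those with at least 10 CPM in a TONO library, the largest late changes were those of LjSGA_014379.2 at 5.00, LjSGA_049936.1 at 4.55, LjSGA_031521.1.1 at −5.13 and LjSGA_026650.1 at −4.85 on the log2 scale. The late change differed between TONO and MAFF303099 for 190 models. Among the 176 of these with at least 10 CPM in a TONO library, the largest differences between the strains were 4.26 for chr3.CM0423.190.r2.m, 3.68 for chr4.CM0432.2580.r2.a, −5.41 for chr2.CM0533.230.r2.a and −5.21 for chr2.CM0533.300.r2.a. Larger differences of −5.89 for LjSGA_031521.1.1 and 5.53 for LjSGA_014379.2 were not called. Each late term rests on 1 library per condition.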

How the results depend on the processing

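The call at 10 dai remained within 1.5 times of 2713 under every scaling, filter and test run, from 2713 to 4012, and with the 6 TONO libraries all free it was 3218, of which 2006 were shared. Leaving out 1 library gave 1414 to 3160 models at 10 dai, 0 to 2 at 5 dai and at 7 dai, 254 to 1672 for the late change, 0 to 0 for 7 against 5 dai, 0 to 574 for TONO against MAFF303099 and 2 to 16 for the mean of 3 days. DESeq2 called 22 models at 5 dai, 30 at 7 dai, 3 for 7 against 5 dai, 2261 for the late change, 1070 for the difference between strains and 184 for the mean of 3 days. Limma-voom called 0 at 5 dai and 2 at 7 dai, and a term for apn1 MAFF303099 at 10 dai gave 2 and 2. The mean of 3 days called 2, 0 and 4 models without day 5, 7 and 10, 3 with the TONO libraries only and 4 with the day block dropped. No paired analysis beyond the day block was possible because the labels carry no replicate numbers. Models at least 2-fold apart at 5 and 7 dai numbered 1061 and 1360 with a prior count of 8, 3371 and 3820 with no filter, and 729 and 822 at a mean count of at least 50. With 2-fold in place of 4-fold, and 4-fold in place of 2-fold, the medians at 10 dai were −0.77 (early rise), −1.13 (late rise), −2.18 (steady rise), 0.79 (late fall) and 1.83 (steady fall). With total-count scaling, added after the data were seen, they were −0.97, −1.75, −1.37, 1.57 and 1.12. No named model changed sign in any alternative. LjSGA_014379.2 missed the threshold for the late change in 13 of 19 alternatives, with 1.89 and an adjusted p of 0.967 in the fit with the 6 TONO libraries free. The 10 dai call of its difference passed in all 19. The late change could not be fitted without the apn1 TONO library of 10 dai, nor the difference between strains without either apn1 library of 10 dai. Depth limits low models most: of the 8195 lowest, 17.1% were at least 2-fold apart at 5 dai.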
